A study of Mus musculus with 22 samples.

Results

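A group of 9 genes of the B lymphocyte lineage was followed through cells sorted from mouse breast tumors, namely Cd79a, Cd79b, Ms4a1, Pax5, Ebf1, Cd22, Ighm, Jchain and Blk. They were taken by symbol, matched to the Ensembl identifiers of the gene count tables, and make up 9 of the 41388 genes counted in 22 RNAseq libraries. Tumor-bearing C57BL/6 mice, labelled as postnatal day 56, carried an Osterix-Cre transgene (Osx-cre) with the Ai9 reporter, so that cells with a history of Cre activity express TdTomato (TdT). Cre is driven by a tetracycline-responsive Osx promoter, and TdT marks descent from cells that once used this promoter rather than its present use. Both genotypes carried the transgene and the reporter. The wild type mice were Osx-cre;Ai9, of which 4 were inoculated, and the other mice were labelled Cdh2-cKO;Ai9, a conditional knockout of the N-cadherin gene, of which 6 were inoculated. The tumor cells were of the line labelled MMTV-BO1, and they were removed by their fluorescence before the stroma was sorted. In each genotype, 4 populations were sorted by TdT and by the pan-leukocyte surface protein CD45. They are called TdTOSX single positive (TdT+, CD45-, 2 libraries per genotype), double positive (TdT+, CD45+, 3 libraries), CD45 single positive (TdT-, CD45+, 3 libraries) and double negative (TdT-, CD45-, 3 libraries).

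B lymphocytes recognise antigen through a membrane immunoglobulin held in a complex with the signalling chains CD79A and CD79B. The transcription factors EBF1 and PAX5 establish and keep the identity of the lineage, and they act on the genes of the receptor complex. A mature naive B cell carries IgM with a light chain and surface proteins such as CD20 and CD22, whereas a plasma cell secretes antibody and has lost much of that surface. In tumors, B cells are found as scattered cells or in lymphoid aggregates, in amounts that vary between tumors. Several of these genes are not restricted to B cells. EBF1 is also made in adipocyte, pericyte and other stromal lineages, CD22 and CD79B transcripts occur in some myeloid cells, unrearranged Ighm is transcribed in T cells, and BLK is also present in some gamma-delta T cells.

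On GRCm38, the receptor chains lie at chr7:24897381-24902197 on the + strand (Cd79a, ENSMUSG00000003379), chr11:106311341-106314762 on the - strand (Cd79b, ENSMUSG00000040592) and chr12:113418558-113422730 on the - strand (Ighm, ENSMUSG00000076617, the constant region of the mu heavy chain). Ms4a1 (ENSMUSG00000024673) is at chr19:11249675-11266241 and Cd22 (ENSMUSG00000030577) at chr7:30865402-30880342, both on the - strand. Pax5 (ENSMUSG00000014030) is at chr4:44524757-44710487 on the - strand and Ebf1 (ENSMUSG00000057098) at chr11:44617317-45008091 on the + strand. Jchain (ENSMUSG00000067149) is at chr5:88519809-88527891 and Blk (ENSMUSG00000014453) at chr14:63372836-63417037, both on the - strand. The counts cover annotated exons. Ms4a1, Pax5, Ebf1 and Cd22 overlap other annotated genes, and since it is not stated that counting used the strand, reads of such neighbours could not be told apart from theirs.

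A RefSeq promoter window on GRCm38.p6 was at hand for 5 of the 9 genes. The upstream stretches of 4 of them are shown, because these genes were high together in the same library, as described below. Annotated exons were left out of each stretch, and capitals mark a match to CCCNNGGG, the core of the site that EBF1 binds.
Cd79a, chr7:24897247-24897380, + strand: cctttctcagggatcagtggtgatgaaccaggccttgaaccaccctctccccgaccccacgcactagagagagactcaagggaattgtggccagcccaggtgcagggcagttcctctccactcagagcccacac
Cd22, chr7:30879029-30879176, - strand: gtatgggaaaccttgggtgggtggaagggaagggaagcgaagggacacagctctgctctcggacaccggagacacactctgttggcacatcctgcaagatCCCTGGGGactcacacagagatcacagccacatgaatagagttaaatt
Pax5, chr4:44710695-44710944, - strand: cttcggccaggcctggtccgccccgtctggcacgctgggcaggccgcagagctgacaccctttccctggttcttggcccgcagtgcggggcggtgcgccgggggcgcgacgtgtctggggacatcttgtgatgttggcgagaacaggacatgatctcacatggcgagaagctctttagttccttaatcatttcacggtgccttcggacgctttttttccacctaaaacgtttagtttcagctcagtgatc
Jchain, chr5:88527898-88528147, - strand: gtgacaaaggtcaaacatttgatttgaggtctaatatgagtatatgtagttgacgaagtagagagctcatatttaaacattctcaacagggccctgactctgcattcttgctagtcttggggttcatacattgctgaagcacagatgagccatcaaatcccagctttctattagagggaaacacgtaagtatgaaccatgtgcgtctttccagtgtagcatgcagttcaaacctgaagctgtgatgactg
In the 250 bases before the RefSeq start, this core was found in Cd22, at positions -48 to -41, and in 11.8% of all 32851 windows. The Cd22 stretch lies within the gene as placed above, which on its - strand begins at 30880342. Of its window, 102 of 250 bases are annotated exon. Only exact matches were searched, so a binding site that departs from these letters would be missed. The octamer ATGCAAAT, searched on both strands like the core, which reads the same on both, was in none of the 5 genes' windows and in 1.6% of all windows.

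Between 16594228 and 26784003 reads were counted on genes per library, with 17267392 in the library that the results turn on, CD45 single positive wild type replicate 2. Levels are given as CPM, read counts scaled to library size after TMM normalization, on which 3 reads, taken as the limit of detection, amount to 0.103 to 0.201 CPM. Ptprc, which encodes CD45, was at 472 to 1821 CPM in the 12 CD45+ libraries and at 2.45 to 337 CPM in the 10 CD45- libraries, so it separated the groups, with the highest CD45- level in wild type double negative replicate 3. Sp7, the gene of Osx, was at or under 0.0669 CPM in every library. Cdh2 was at 4.52 to 9.13 CPM in the wild type CD45- libraries and at 12.5 to 18.4 CPM in those labelled Cdh2-cKO. This order goes against the knockout label, although a count over all exons does not check the deleted part. The second genotype is therefore named by its label below. In bulk RNA, fewer cells of a type and less RNA per cell cannot be told apart. The labels do not tie libraries to single mice, and p-values measure the spread between libraries.

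The B cell genes were concentrated in a single library. CD45 single positive wild type replicate 2 held 97131 of the 138230 reads that all 22 libraries had on the 9 genes, or 70.3% (95% Wilson interval 70.0% to 70.5%, counting error only). After TMM normalization it held 74.0% of the summed CPM, where an equal share would be 4.55%. The share was 99.0% for Cd79a, 98.6% for Pax5, 98.2% for Ms4a1, 90.2% for Jchain, 88.9% for Ighm, 88.7% for Cd79b, 85.7% for Blk and 75.3% for Cd22. Only Ebf1, at 13%, was spread over other libraries. Without Ebf1, Ighm and Jchain, the sum over the remaining 6 genes was 92.1% in this library. Reads on the 9 genes were 0.563% of this library and at most 0.0308% of any other.

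**Figure D1:**
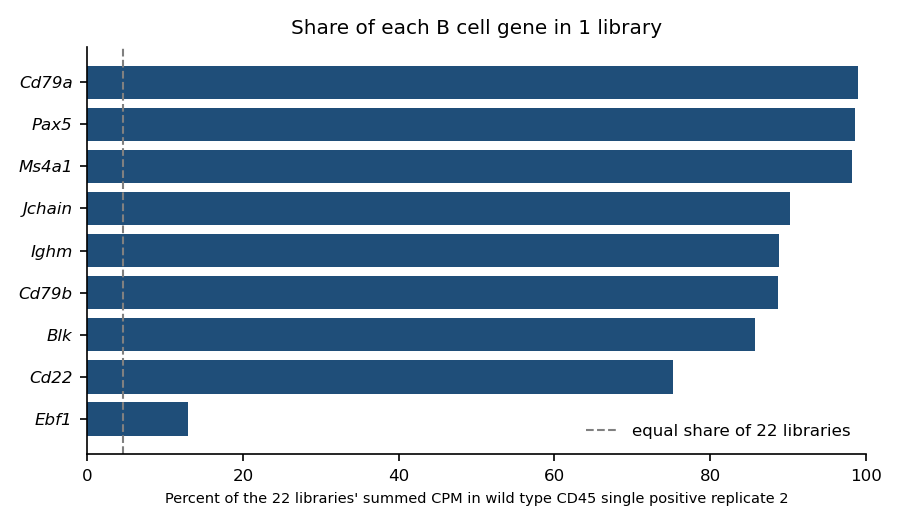
Percent of the summed TMM-normalized CPM of 22 libraries that lies in CD45 single positive wild type replicate 2 (x axis), for each of the 9 genes (y axis). The bars run from 13% for Ebf1 to 99.0% for Cd79a, and the dashed line marks 4.55%, an equal share.

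A level at least 10-fold over each of the other 21 libraries was reached in this library by 8 of the 9 genes, all but Ebf1. Among the 15018 genes kept for testing it was reached by 70 genes, or 0.466%, and by 6 of the 7 B cell genes kept. In each of the other 21 libraries, at most 1 gene stood apart in this way, and it was no B cell gene. This describes the library and is no test of the condition.

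Cd79a, a signalling chain of the receptor, had the highest share of the 9 genes in this library. It had 15101 reads (865 CPM) in replicate 2 of the wild type CD45 single positive cells, 12 reads in replicate 1 and 11 in replicate 3. The libraries labelled Cdh2-cKO of the same population had 12, 10 and 9 reads. Over the 11 other CD45+ libraries its level was 0.386 to 0.95 CPM with a median of 0.594, and over the 10 CD45- libraries 0.0512 to 0.385 CPM with a median of 0.204. No library other than replicate 2 thus reached 1 CPM. Cd79b stood at 973 CPM in replicate 2, at 7.88 and 7.60 CPM in replicates 1 and 3, and at 13.5, 7.69 and 6.92 CPM in the 3 CD45 single positive libraries labelled Cdh2-cKO. Unlike Cd79a, it was well above the detection limit in all CD45+ libraries, from 6.24 to 19.2 CPM in the 11 others, and its highest other level was in wild type double positive replicate 3.

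Ighm, the mu heavy chain, was at 2064 CPM in replicate 2. The other wild type CD45 single positive libraries had 28.7 and 7.43 CPM, and those labelled Cdh2-cKO had 21, 5.95 and 2.24 CPM. Wild type double positive cells had 25.9, 22.1 and 80.8 CPM, and double positive cells labelled Cdh2-cKO had 12.1, 12 and 9.20 CPM. Ighm was thus present in every CD45+ library, and among the 11 other than replicate 2 it was highest in wild type double positive replicate 3. The CD45- libraries ranged from 0.824 to 8.98 CPM.

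Of the surface proteins, Ms4a1 (CD20, a regulator of calcium entry) followed Cd79a. It had 16219 reads (929 CPM) in replicate 2 and 7 and 23 reads in replicates 1 and 3. Its highest level elsewhere was 2.46 CPM, in wild type double positive replicate 2. Cd22, an inhibitory lectin of the receptor, was at 334 CPM in replicate 2 and at 3.74 to 14.6 CPM in the 11 other CD45+ libraries. Among CD45- libraries it had 138 reads (7.60 CPM) in wild type double negative replicate 3 and 208 reads (7.13 CPM) in TdTOSX single positive replicate 1 labelled Cdh2-cKO, and at most 1.28 CPM in the 8 others. Those are also the CD45- libraries with the highest Cd79b, at 7.65 and 5.18 CPM. They had the highest summed level of the pan-leukocyte markers among CD45- libraries, 4460 and 3241 CPM, and of the macrophage markers, 17123 and 12124 CPM, while Cd79a stayed at 0.385 and 0.274 CPM. The part of other leukocytes in these Cd22 and Cd79b levels was not tested.

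The 2 transcription factors behaved differently from each other. Pax5 had 427 reads (24.5 CPM) in replicate 2, 0 reads in 15 libraries and 1 or 2 reads in the rest, so it was detected above the limit of 3 reads in no other library. Ebf1 was at 211 CPM in replicate 2, against 0.481 and 1.62 CPM in replicates 1 and 3 and 0.481 to 2.18 CPM over the 11 other CD45+ libraries. The CD45- libraries without exception were higher than those 11, from 32.3 to 281 CPM with a median of 125 CPM. TdTOSX single positive cells had 281 and 160 CPM in wild type and 102 and 266 CPM in the libraries labelled Cdh2-cKO. Double negative cells had 143, 79.2 and 32.3 CPM in wild type and 83.0, 121 and 129 CPM in the libraries labelled Cdh2-cKO. The lowest and the highest of these 10 levels fell in the libraries with the lowest and the highest summed fibroblast markers, 3233 CPM in wild type double negative replicate 3 and 44308 CPM in wild type TdTOSX single positive replicate 1. In replicate 2 of the CD45 single positive cells the fibroblast markers summed to 124 CPM and the mural cell markers to 6.59 CPM, both far below the CD45- libraries.

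Jchain, which joins IgM and IgA into polymers, was at 81.5 CPM in replicate 2 and next highest in replicate 1 of the same group, at 3.55 CPM (59 reads). It was at or under 1.06 CPM in all other libraries. Blk, a kinase of the receptor pathway, was at 82.6 CPM in replicate 2 and next highest at 3.01 CPM (57 reads) in wild type double positive replicate 3. That library also had the highest T cell marker sum outside replicate 2, 504 CPM against 8.46 to 222 CPM in the 10 remaining CD45+ libraries, and the highest gamma-delta type 17 lymphocyte sum outside it, 10.7 CPM, as well as the highest other Ighm. The share of T cells in these levels was not tested.

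**Figure D2:**
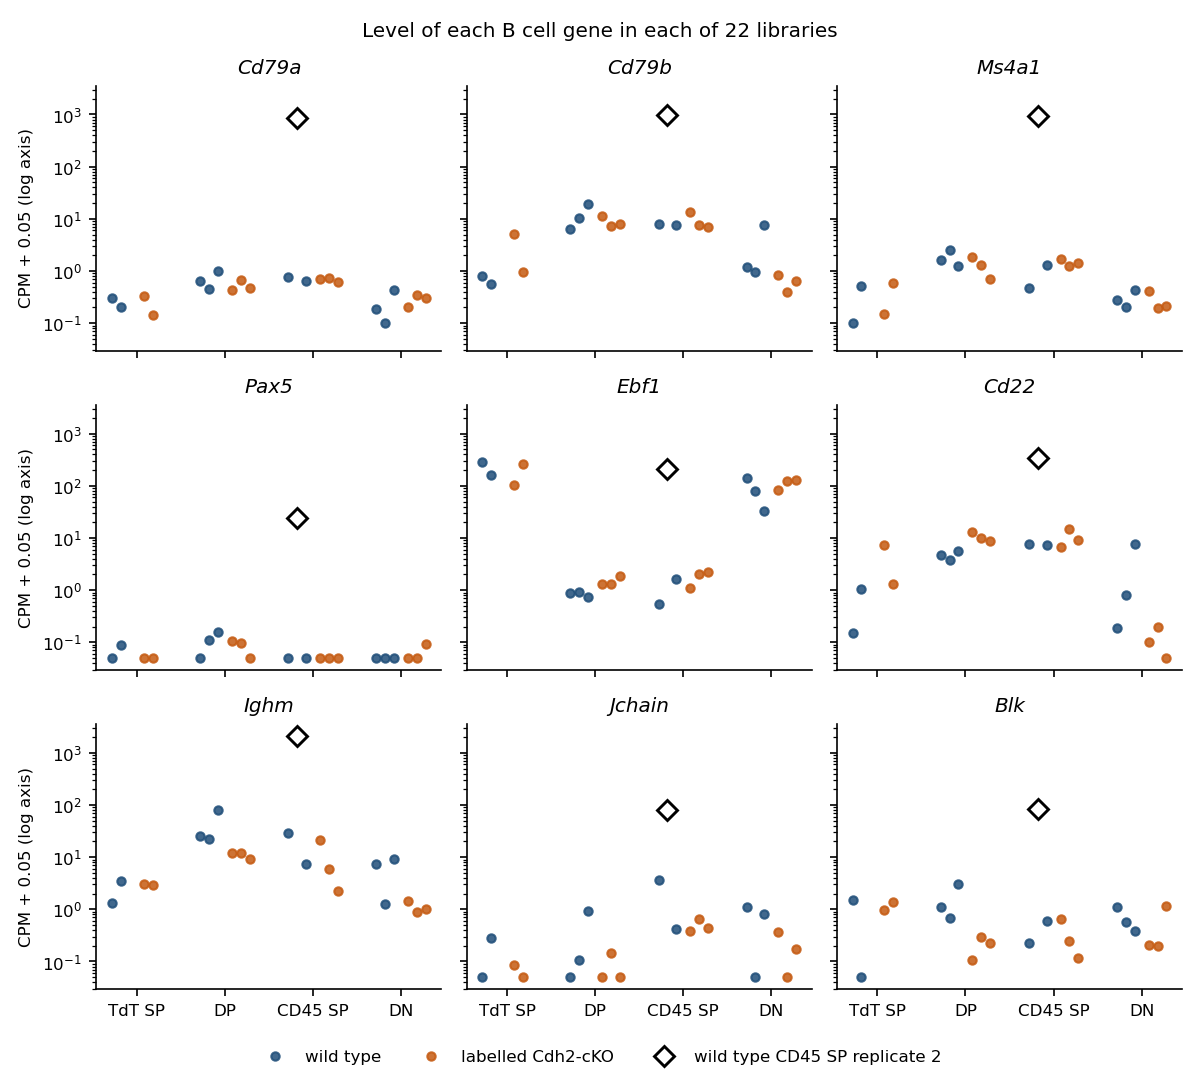
TMM-normalized CPM plus 0.05 on a log axis (y) for each of the 9 genes in all 22 libraries, by sorted population (x: TdT SP, TdTOSX single positive; DP, double positive; CD45 SP, CD45 single positive; DN, double negative) and genotype (color). The open diamond is CD45 single positive wild type replicate 2, which lies above every other library for 8 genes and among the CD45- libraries for Ebf1.

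Per kilobase of exon, the order of the levels in replicate 2 was Ighm (1389 CPM per kb), Cd79b (679.9), Cd79a (594), Ms4a1 (150.2), Cd22 (66.9), Jchain (44.9), Blk (33.4), Ebf1 (21.6) and Pax5 (9.92). There is 1 such library, so the order has no replicate check. The proportions between genes were not those of the other CD45+ libraries. For each read on Cd79a, replicate 2 had 1.12 reads on Cd79b, 1.07 on Ms4a1, 2.39 on Ighm and 0.386 on Cd22. In the 11 other CD45+ libraries, the medians were 12.8 reads on Cd79b (range 10.5 to 29.3), 2.09 on Ms4a1 (0.583 to 6.0), 31.4 on Ighm (3.89 to 85.1) and 12.5 on Cd22 (5.78 to 34.1). The ranges for Cd79b, Ighm and Cd22 did not include the value of replicate 2. As a percentage of the level in replicate 2, the median of the 11 libraries was 0.0687% for Cd79a, 0.136% for Ms4a1, 0.588% for Ighm, 0.810% for Cd79b and 2.29% for Cd22. These percentages were not the same for all genes, with the caveat that those of Cd79a and Ms4a1 rest on 7 to 42 reads per library.

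The other immunoglobulin genes were also high in replicate 2. Igkc, the kappa light chain, was at 2477 CPM, and at 0.721 to 7.64 CPM in the 11 other CD45+ libraries. Iglc2, a lambda light chain, was at 415 CPM against at most 0.475 CPM. Of the reads on heavy chain constant genes, 95.7% were on Ighm. The switched classes had 27.2 CPM for Igha, 24.9 CPM for Ighg2b, 17.5 CPM for Ighg3, 11 CPM for Ighg1, 9.62 CPM for Ighg2c and 1.49 CPM for Ighe. Among variable genes, 85 of 104 heavy chain genes and 93 of 97 kappa genes had more than 3 reads. The most used, Ighv9-3 and Igkv6-15, held 6.05% of heavy chain and 7.29% of kappa variable reads. No other CD45+ library had more than 2 heavy chain or 4 kappa variable genes over 3 reads, although Ighm reached 80.8 CPM in one of them. Variable genes of a family are near-identical, and counting can split or lose their reads.

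Further genes of the lineage were read from 7 lists. Of the surface proteins and coreceptors, 11 of the 17 genes measured were at least 10-fold over all other libraries in replicate 2. They include Cr2 (143 CPM, the complement receptor CD21), Fcer2a (524 CPM, the low-affinity IgE receptor CD23), Tnfrsf13c (108 CPM, the BAFF receptor) and Fcmr (113 CPM, the IgM Fc receptor). Cd81 and Fcgr2b, which macrophages also make, were lower there, at 343 and 641 CPM, than in any of the 11 other CD45+ libraries, whose lowest levels were 830 and 1457 CPM. In signalling, 2 of 14 genes passed the same limit, among them Bank1 (451 CPM). Lyn, a kinase shared with myeloid cells, was at 224 CPM, under the 275 to 384 CPM of the others. Among transcription factors, 3 of 12 passed, namely Pou2af1 (68.1 CPM), Spib (55.8 CPM) and Bcl11a (71.2 CPM).

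In the lists of stages before and after the mature B cell, the part that passed the 10-fold limit in replicate 2 differed by list. Among all genes kept for testing, 0.466% passed it. The plasma cell list, with 3 of 11, was near the transcription factors, with 3 of 12. Replicate 2 was the highest library for 4 of 9 early B cell, 4 of 7 germinal centre and 7 of 11 plasma cell genes. In the early B cell list 3 genes, and in the germinal centre list 1, had at most 3 reads in every library. In the early B cell list, 1 of 9 genes passed the 10-fold limit, Vpreb3, at 38.5 CPM. Rag1 and Rag2, the recombinase of immunoglobulin genes, had 0 reads in replicate 2, and the surrogate light chain genes Igll1 and Vpreb1 had 4 and 3 reads. In the germinal centre list, 0 of 7 passed. In the plasma cell list 3 of 11 passed, Mzb1 at 107 CPM and the switched chains Ighg1 and Ighg2b. Sdc1 (CD138) was at 19.3 CPM, within the 6.90 to 25.8 CPM of the other CD45+ libraries, and Tnfrsf17 (BCMA) had 2 reads. In the chemokine and survival factor list, 1 of 8 passed, Lta at 26.6 CPM. Cxcl13 and Cxcl12, which attract B cells, were at 3.09 and 2.69 CPM in replicate 2, while the median of the CD45- libraries was 81.7 and 49.3 CPM.

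**Figure D3:**
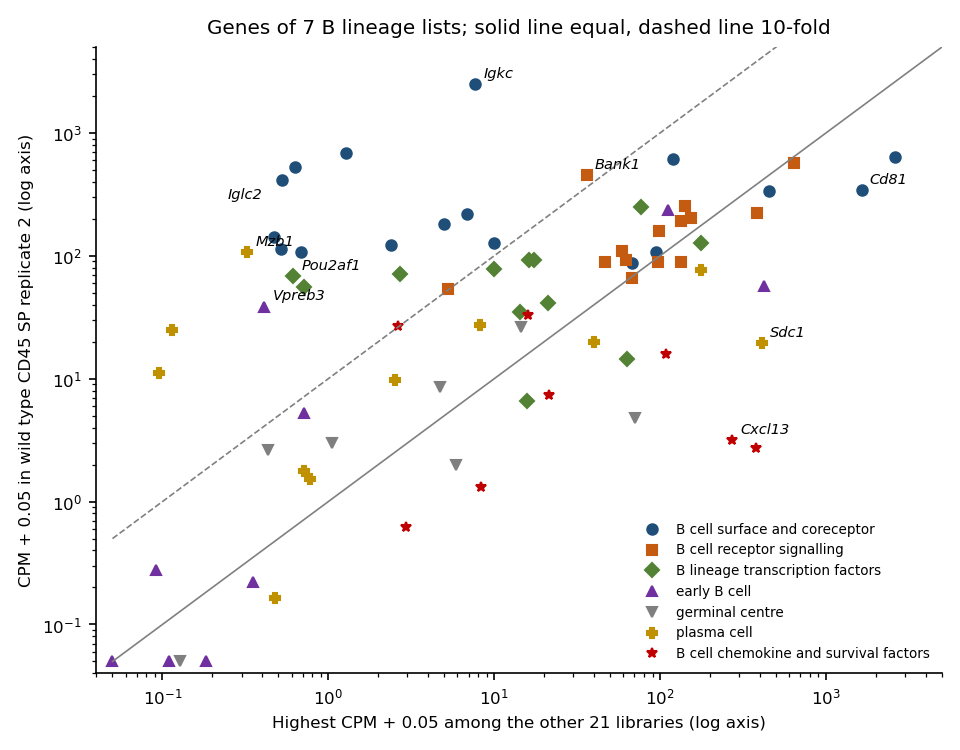
CPM plus 0.05 of each gene of 7 B lineage lists in CD45 single positive wild type replicate 2 (y, log axis) against its highest level among the other 21 libraries (x, log axis). Colors and symbols mark the lists. Points above the dashed line are at least 10-fold higher in replicate 2, among them 11 of 17 surface genes and 0 of 7 germinal centre genes.

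Markers of T cells and NK cells were high in the same library as the B cell genes. The summed T cell markers were at 2342 CPM in replicate 2 and at 8.46 to 504 CPM in the 11 other CD45+ libraries, and the NK cell sum was 179 CPM (others 4.51 to 40.7). All 6 T cell and all 4 NK cell markers were above the other CD45+ libraries. The gamma-delta type 17 lymphocyte sum was also above the others, at 18.3 CPM (others 0.331 to 10.7). In 3 further lists the sum was higher through a few of the genes. The neutrophil sum was 831 CPM (37.8 to 90.2), of which Retnlg made up 745 CPM, while S100a8, at 37.3 CPM, was within the 8.30 to 42.1 CPM of the others and Ly6g had 8 reads. The plasmacytoid dendritic cell sum was 675 CPM (122 to 210), of which Ly6d, also known from the B lineage, made up 468 CPM, while Tcf4, at 145 CPM, was within 122 to 208 CPM. The endothelial sum was 217 CPM (7.66 to 37.1), of which Pecam1, which leukocytes also make, made up 214 CPM, while Cdh5, at 0.802 CPM, was under the 0.819 to 2.22 CPM of the others. The macrophage sum went the other way, 6197 CPM against 23346 to 48822 CPM. The pan-leukocyte sum, 9017 CPM, was within the 7506 to 9786 CPM of the others. The B cell sum in replicate 2 was 3474 CPM and at most 21.7 CPM elsewhere. Which tissue or cells these came from was not tested.

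**Figure D4:**
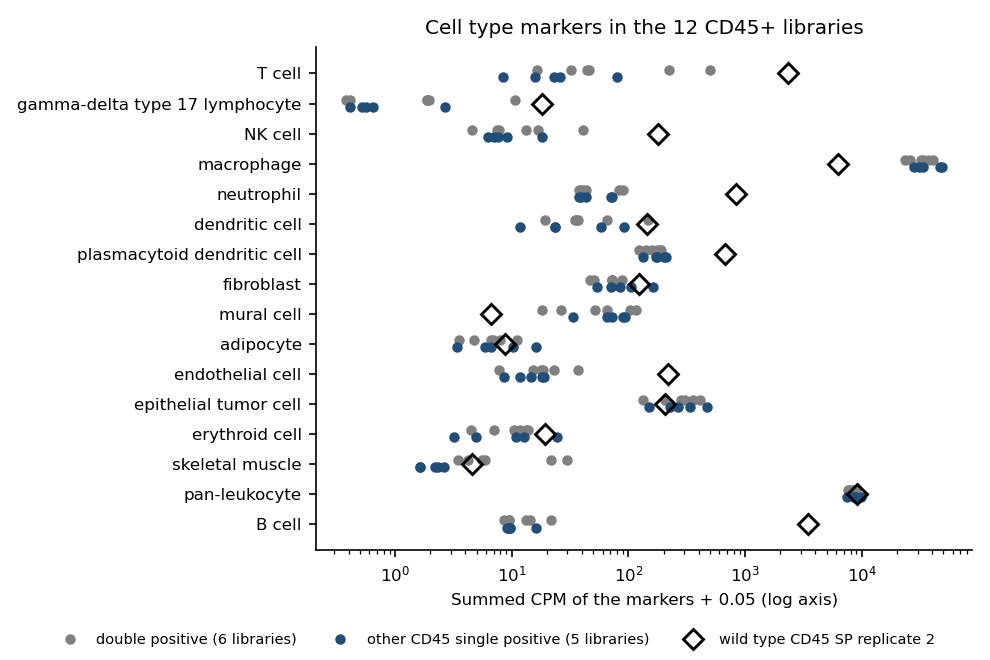
Summed CPM of the markers of each cell type plus 0.05 (x, log axis) in the 12 CD45+ libraries, with 1 row per list. Open diamonds are CD45 single positive wild type replicate 2, at 3474 CPM for B cell markers where no other CD45+ library passed 21.7 CPM, and at 6197 CPM for macrophage markers where no other was under 23346 CPM.

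The first comparison asked where the genes lie between leukocytes and stroma, over all 22 libraries. Cd79b, Ms4a1, Cd22 and Ighm were higher in CD45+ than in CD45- cells and Ebf1 was lower, while Jchain and Blk did not pass. Of the 9 genes, 7 passed the filter on low counts (over 1 CPM in at least 2 libraries) and were tested, with edgeR's quasi-likelihood test and adjusted p-values of at most 0.05 over 15018 genes. Among all genes tested, 32.6% were called higher and 31.1% lower, so 5 of 7 called is near the background of 63.7%. The log2 fold changes were 4.11 (SE 0.79, adjusted p = 0.000221) for Cd79b, 4.37 (SE 1.01, adjusted p = 0.00108) for Ms4a1, 4.22 (SE 0.82, adjusted p = 0.000244) for Cd22 and 4.04 (SE 0.80, adjusted p = 0.000279) for Ighm. They were -5.34 (SE 0.72) for Ebf1, 2.28 (SE 1.30, adjusted p = 0.134) for Jchain and 0.80 (SE 0.89, adjusted p = 0.45) for Blk. Without replicate 2, the same 5 genes were called, in a background of 33.5% higher and 33.6% lower among 14839 genes. Their log2 fold changes then were 2.76 (SE 0.42) for Cd79b, 2.23 (SE 0.41) for Ms4a1, 3.24 (SE 0.59) for Cd22, 2.73 (SE 0.45) for Ighm and -6.85 (SE 0.35) for Ebf1, and Ebf1 no longer overlapped between the groups, as was the case, in that direction, for 13% of genes. Blk turned from 0.80 to -0.76 (adjusted p = 0.284). Cd79a could be fitted only with no filter on low counts, at 3.71 (SE 0.88, adjusted p = 0.00141) with replicate 2 and 1.53 (SE 0.42, adjusted p = 0.00383) without it. Pax5 was not tested.

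The 7 lists are set beside the same background, 32.6% called higher and 31.1% lower. Of 14 signalling genes tested, 12 were called higher in CD45+ cells, with a median log2 fold change of 3.08 (0.06 over all genes), and 12 without replicate 2. Examples are Btk at 3.53 (SE 0.64) and Plcg2 at 3.4 (SE 0.46), both also used by myeloid cells. Of 12 surface genes tested, 10 were higher, 9 without replicate 2, led by Fcrla at 4.86 (SE 0.90). The filter had left out Cr2, Fcer2a, Tnfrsf13c and Fcmr, which were at or under 0.633 CPM outside replicate 2. Those tested include Cd72, Cd37 and Fcgr2b, at no less than 226.7, 67.2 and 1457 CPM in the other CD45+ libraries. The count is therefore not specific to B cells. Of 10 transcription factors, 7 were higher and 1 was lower, Bcl11a at 4.55 (SE 0.87) being the largest, and Tcf3 was the one called lower. Of 8 chemokine and survival factor genes, 4 were higher, among them Ltb at 6.28 (SE 0.98), and 4 were lower, among them Cxcl13 at -7.21 (SE 0.56). Both early B cell genes tested, Il7r and Cd93, were higher. In the germinal centre list 1 of 5 was lower, S1pr2, and in the plasma cell list Sdc1 was lower at -3.73 (SE 0.29) and Igha higher at 2.31 (SE 0.76).

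The second comparison set the double positive against the CD45 single positive cells, that is, CD45+ cells with and without the Osx-derived label. None of the 7 genes was called, and across the 15018 genes 1 was called (0.00666%). At an unadjusted p under 0.05 stood 6 of the 7 genes, and 609 of all genes. DESeq2 also called 0 of the B cell genes, but a gene without an adjusted p counts as not called there. In CD45+ against CD45- cells it gave no adjusted p for Cd79b, Ms4a1, Cd22 and Blk, so its 0 is weak evidence. With replicate 2 in the fit, all 7 log2 fold changes were negative, from -4.91 (SE 1.33) for Jchain to -1.92 (SE 0.91) for Ighm, with a median of -2.49 where the median of all genes was -0.06. Without it, Cd79b was at 0.27 (SE 0.52), Ms4a1 at 0.45 (SE 0.51), Ighm at 0.72 (SE 0.57) and Blk at 0.63 (SE 0.92), and Ebf1 was at -0.34 (SE 0.43), Cd22 at -0.31 (SE 0.67) and Jchain at -2.99 (SE 1.15). None of these was called (adjusted p = 1 for each). Cd79a, with no filter, went from -4.55 (SE 1.06) to -0.21 (SE 0.54). The background of that fit was 0.00674% of 14839 genes. Between the 2 populations labelled Cdh2-cKO, it gave -0.09 (SE 0.68) for Cd79b, -0.16 (SE 0.67) for Ms4a1, 0.08 (SE 0.90) for Cd22 and 0.18 (SE 0.76) for Ighm.

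**Figure D5:**
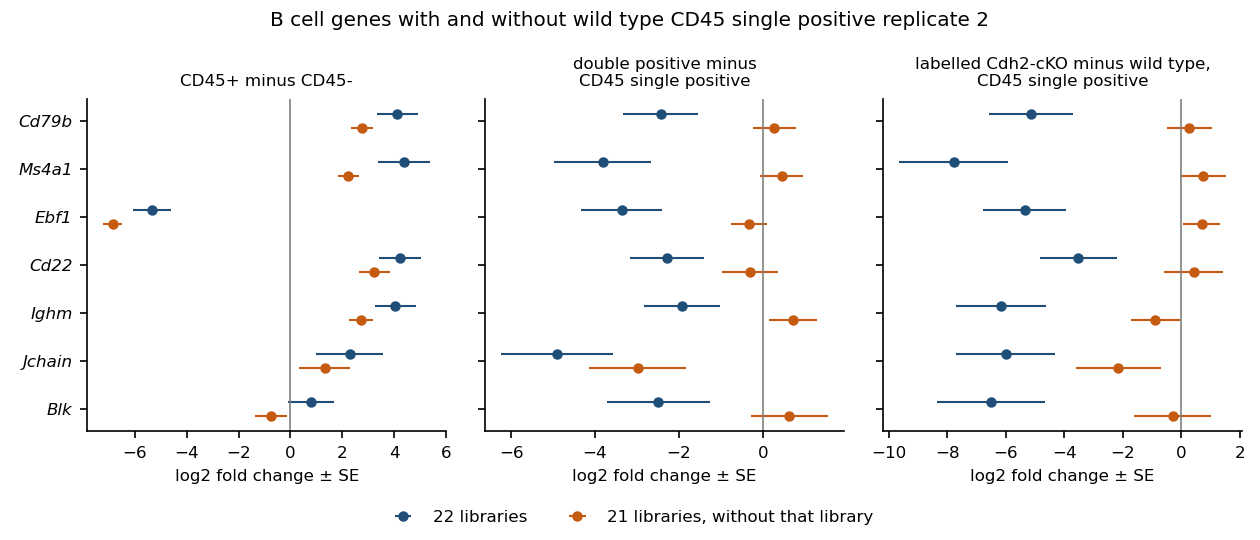
Log2 fold change ± SE from edgeR (x) of the 7 B cell genes tested (y), in 3 comparisons, fitted on 22 libraries and on the 21 without CD45 single positive wild type replicate 2. In the middle and right panels the 22-library values are all negative, and 4 of 7 cross 0 in the 21-library fit in each.

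The third comparison was between genotypes within each population. In CD45 single positive cells, the libraries labelled Cdh2-cKO were below wild type for all 7 genes when replicate 2 was included, from -7.78 (SE 1.87, adjusted p = 0.417) for Ms4a1 to -3.52 (SE 1.31, adjusted p = 0.429) for Cd22. None of them, and none of the 15018 genes (0%), was called by edgeR, although all 7 and 1474 of all genes had an unadjusted p under 0.05. DESeq2 called Ebf1 and Ighm lower, with replicate 2 in the fit, and it was not run without that library. Its calls over all genes in this comparison are given in the last paragraph. The 3 libraries of each genotype overlapped for all 7 genes, where 10.1% of all genes tested did not overlap in either direction. Without replicate 2 the values were 0.28 (SE 0.77) for Cd79b, 0.75 (SE 0.78) for Ms4a1, 0.71 (SE 0.63) for Ebf1, 0.43 (SE 1.02) for Cd22, -0.88 (SE 0.83) for Ighm, -2.15 (SE 1.45) for Jchain and -0.29 (SE 1.32) for Blk. For Cd79a, with no filter, the log2 fold change went from -8.76 (SE 1.64) to -0.06 (SE 0.80).

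In double positive cells, which do not include that library, 4 of the 7 genes did not overlap between the genotypes, where 12.8% of all genes tested did not. Ighm was at 25.9, 22.1 and 80.8 CPM in wild type and at 12.1, 12 and 9.20 CPM in the libraries labelled Cdh2-cKO, and Blk at 1.07, 0.643 and 3.01 CPM against 0.0552, 0.243 and 0.18 CPM, from 1 to 57 reads. In the opposite direction, Cd22 was at 4.69, 3.74 and 5.49 CPM in wild type and at 13.2, 10.1 and 8.72 CPM in the libraries labelled Cdh2-cKO, and Ebf1 at 0.832, 0.877 and 0.686 CPM against 1.27, 1.26 and 1.80 CPM. None of these differences passed the test. The log2 fold changes were -1.95 (SE 1.29) for Ighm, -3.24 (SE 1.77) for Blk, 1.20 (SE 1.23) for Cd22 and 0.85 (SE 1.39) for Ebf1, each with an adjusted p of 1, and no gene at all was called by edgeR in this comparison (0% of 15018, 515 at an unadjusted p under 0.05). The T cell marker sum was at 43.7, 222 and 504 CPM in the wild type and at 46.2, 32.5 and 16.3 CPM in the other double positive libraries, and its part in the Ighm and Blk values was not tested.

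In double negative cells, Cd79b was lower in every library labelled Cdh2-cKO (0.789, 0.339 and 0.584 CPM) than in wild type (1.15, 0.921 and 7.65 CPM), where 9.22% of all genes did not overlap in either direction. The log2 fold change of -2.49 (SE 1.43, adjusted p = 0.697) did not pass the test. Cd22 had 3, 15 and 138 reads in wild type and 1, 3 and 0 reads in the libraries labelled Cdh2-cKO, and was not called (adjusted p = 0.235). In TdTOSX single positive cells, 2 of the 7 genes did not overlap between the genotypes, where 42.1% of all genes did not with 2 libraries each. Cd79b was at 0.765 and 0.504 CPM in wild type and at 5.18 and 0.911 CPM in the libraries labelled Cdh2-cKO, and Cd22 was at 0.102 and 1.01 CPM against 7.13 and 1.28 CPM. Neither was called (adjusted p = 0.656 for Cd79b and 0.573 for Cd22), and 1 gene of 15018 was (0.00666%). The difference between genotypes in the double positive against CD45 single positive effect was not called for any of the 7 genes (adjusted p = 0.953 for Cd79b, 4.70, SE 1.80, and -0.71, SE 1.03, without replicate 2).

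The last comparison, TdTOSX single positive against double negative cells, concerns the genes that stroma expresses. Ebf1 was at 102 to 281 CPM in the 4 former and at 32.3 to 143 CPM in the 6 latter libraries, which overlapped, and its log2 fold change of 1.05 (SE 0.90, adjusted p = 0.542) did not pass, nor did it without replicate 2 (1.05, SE 0.36, adjusted p = 0.103). None of the 7 genes was called by edgeR, where 1.23% of all genes were called higher and 0.659% lower. By edgeR, 0 of the 7 had an unadjusted p under 0.05. DESeq2 called none either, with genes that lack an adjusted p counted as not called. The difference in Cd22 had opposite signs in the genotypes, at -2.27 (SE 1.60) in wild type and 5.92 (SE 1.89, adjusted p = 0.15) in the libraries labelled Cdh2-cKO. The latter rests on double negative libraries with at most 3 reads, so that its size depends on the fit. Without double negative replicate 3, the wild type value of Cd22 turned to 0.39 (SE 1.63). Without TdTOSX single positive replicate 1 labelled Cdh2-cKO, the other value was 4.20 (SE 2.23, adjusted p = 0.61). These are the 2 CD45- libraries with the highest pan-leukocyte markers described above.

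The genes most like the mean log2 CPM of Cd79a, Cd79b, Ms4a1, Pax5, Cd22 and Ighm changed when replicate 2 was left out. Over 22 libraries, the 10 highest Pearson coefficients, 0.917 to 0.95, belonged to Sp100, Elf1, Tmc8, Map4k2, Gm8369, Kmt2c, Fcrl1, Trim34a, Pxk and Dusp2. Sp100 was at 692 CPM in replicate 2 and at most at 140.3 CPM elsewhere. Over the other 21 libraries, they were 0.967 to 0.979 for Phf11a, Stk4, Dapp1, Samhd1, Phf11b, Dennd4b, Med11, AU020206, Lst1 and P2ry10, so no gene was in both sets of 10. The points share the division into CD45+ and CD45- cells, and the coefficients describe these libraries without a test.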

How the data were processed

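RNA was isolated from the sorted populations of tumors, libraries were made with the Clontech SMARTer kit and read as 50 base single ends. Per the labels and the study's methods, the authors aligned reads with STAR 2.0.4b to GRCm38 and counted them per Ensembl gene with featureCounts, written as version 1.45 in the submitters' processing notes. Each deposited table holds raw counts per gene with the CPM and RPKM the authors computed from them, and the deposited CPM and RPKM were checked against the counts and not used further. Values were taken from the counts, with 355 rRNA genes left out, genes over 1 CPM in at least 2 libraries kept (15018) and TMM normalization. Tests were edgeR 4.0.16 quasi-likelihood fits in R 4.3.3 with 1 mean per group over the 22 libraries, and Benjamini-Hochberg adjustment over all genes kept. The SE is the log2 fold change divided by the square root of F. A promoter window was read from RefSeq (GRCm38.p6). The edgeR fit was tested on simulated counts for CD45+ against CD45- cells only, with no library that stood apart. The other comparisons and the other methods were not tested in this way.

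The members and lists were chosen with earlier results of these data known, among them the library that stands apart. Named were all 9 genes, from each further list the genes called (at most the 3 largest per comparison), and the 10 genes most correlated with the members over 22 and over 21 libraries (log2 CPM, prior count 2). Other genes of the lists were named after their values were seen. The lists' counts include a few genes whose values are not reported here. The labels place the tumors as orthotopic and the series design text as subcutaneous. Alternatives were limma 3.58.1 (voomWithQualityWeights), DESeq2 1.42.0, RLE factors, no filter, an absolute log2 fold change of at least 2, a replicate block, each genotype alone, and each of the 22 libraries left out in turn.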

Additional observations from a re-analysis of the deposited data

How the results depend on the processing

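The share in CD45 single positive wild type replicate 2 was 70.3% with raw counts, 73.1% with CPM by total counts, 92.1% without Ebf1, Ighm and Jchain and 81.9% as the mean of the single shares. Of the 234 alternative values of the 9 results, 227 kept their side of the threshold or moved by less than 1.5 times. DESeq2 called 2 genes in CD45+ against CD45- cells (it gave no adjusted p for Cd79b, Ms4a1, Cd22 and Blk) and 2 in the genotypes of CD45 single positive cells (Ebf1 -5.28, adjusted p = 0.0122, and Ighm -6.09, adjusted p = 0.00212), which it did with replicate 2 in the fit. The fit of the libraries labelled Cdh2-cKO alone called 2 genes in TdTOSX single positive against double negative cells. The share of all genes called in that fit is not given here, so the count cannot be read against a background. That fit also turned Blk in CD45+ against CD45- cells to -1.77 (adjusted p = 0.0457). The cause was not tested.

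Directions that turned, none of them called, were the following. In double positive against CD45 single positive cells, voomWithQualityWeights gave 0.10 for Cd79b, 0.12 for Ms4a1, 0.89 for Ighm and 0.61 for Blk, and the libraries labelled Cdh2-cKO alone gave 0.10 for Cd22 and 0.19 for Ighm. Between genotypes of CD45 single positive cells, voomWithQualityWeights gave 0.32 for Ms4a1 and 0.46 for Ebf1. Wild type libraries alone gave -2.29 for Cd22 in TdTOSX single positive against double negative cells. With each library left out in turn, the number called stayed at 5 in CD45+ against CD45- cells and at 0 in every other comparison, and no value that turned was called. Other libraries than CD45 single positive wild type replicate 2 also turned values. Without wild type double positive replicate 3, Cd79b and Jchain between genotypes of double positive cells were at 0.10 and 0.22. In TdTOSX single positive against double negative cells, Blk was at -2.71 without wild type TdTOSX single positive replicate 1, Cd79b at -0.84 without replicate 1 of that population labelled Cdh2-cKO, and Cd22, in wild type alone, at 0.39 without double negative replicate 3. These are examples. The turns in the ranges that follow came from leaving out CD45 single positive wild type replicate 2. The values ranged from -0.76 to 2.49 for Blk in CD45+ against CD45- cells. In double positive against CD45 single positive cells they ranged from -2.73 to 0.27 for Cd79b, -4.11 to 0.45 for Ms4a1, -2.34 to 0.72 for Ighm and -2.94 to 0.63 for Blk. Between genotypes of CD45 single positive cells they ranged from -5.71 to 0.28 for Cd79b, -8.37 to 0.75 for Ms4a1, -5.93 to 0.71 for Ebf1 and -4.08 to 0.43 for Cd22. Where a TdTOSX single positive group is left with 1 library, that library is assumed to vary like the others.

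Whether the replicate numbers pair the samples could not be settled, since deviations were taken from means of only 2 or 3 libraries. The deviations of same-numbered libraries from their group means correlated between -0.30 and 0.59 in wild type. In the libraries labelled Cdh2-cKO they correlated between -0.13 and 0.17. The medians were 0.0083 and 0.0543, against -0.0306 and -0.0146 for libraries of different number. Of the 22 libraries, 12 correlated best with one of their own number. With the number as a replicate block, 5 of the B cell genes were called in CD45+ against CD45- cells and 0 in every other comparison. Over all genes, TdTOSX single positive against double negative cells gave 185 higher and 99 lower, and 457 and 245 without replicate 2, 557 and 161 with voomWithQualityWeights, 516 and 466 with DESeq2 and 74 and 18 with no filter. DESeq2 called 1 higher and 32 lower between genotypes of CD45 single positive cells and 29 higher and 505 lower in double negative cells, where edgeR called 0. The fits without the filter and with voomWithQualityWeights on 21 libraries were added after seeing the data. Pax5 had too few reads outside 1 library for any statement on the other populations at this depth.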
